A study of Homo sapiens with 6 samples.

Results

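BMP4 and 9 genes of its signalling branch were followed in the cap-bound RNA of MOLT-4 cells: the receptors BMPR1A and BMPR2, the transducers SMAD1 and SMAD5, the inhibitory SMAD6 and SMAD7, and the target genes ID1, ID2 and ID3. A probe was included when its gene name on the array was one of these 10, of 36337 gene names in all. The 10 genes have 16 probes among the 50599 probes for cell RNA. The genes were selected on known pathway membership and on the signals and NUDT16-mock differences of these same arrays, so every NUDT16-mock difference below is a description.

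BMP4 is a secreted ligand of the TGF-beta superfamily. It joins a type II receptor such as BMPR2 to a type I receptor such as BMPR1A, which phosphorylates SMAD1 and SMAD5, and these enter the nucleus with SMAD4. Their direct targets include the ID genes, whose proteins hold back E-protein transcription factors, and SMAD6 and SMAD7, which feed back on the receptors; in the thymus this pathway is known for restraining early thymocyte development.

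MOLT-4 is an established human T-cell acute lymphoblastic leukaemia line. In the mock group (3 arrays) the cells received an empty vector, and in the other group (3 arrays) they received NUDT16, a nudix hydrolase that removes RNA caps and whose gene the study describes as epigenetically silenced in this leukaemia. From each, 20 µg of total RNA was immunoprecipitated for the m3G/m7G cap, and the eluate was copied to cDNA, labelled with Cy3 and hybridised to a 1-colour array. The comparison asks which capped transcripts change when the enzyme is present; the RNA before immunoprecipitation was not analysed here, so a change in a transcript's amount and a change in its capped share cannot be told apart. Nor, in bulk cultures, can fewer cells with a transcript and less RNA per cell. The labels do not say that the arrays of a group came from separate cultures, so p-values measure the spread between these arrays, which may be technical.

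The share of spots well above background, the scanner software's call for detection, was 39.3% to 51.1% in mock, and 42.3%, 14.6% and 52.0% on NUDT16 replicates 1, 2 and 3. NUDT16 replicate 2 therefore stood apart, and of the 17730 probes detected on all 3 mock arrays 37.3% were detected on it. Each array was on 1 of 3 slides, each holding the mock and the NUDT16 array of the same number, and same-numbered arrays deviated together from their group means (r = 0.84, 0.39 and 0.77 across 17765 probes). Neither probe of NUDT16 was detected on any array, so the transfected gene itself could not be checked. A probe of its near-identical copy NUDT16P1 was detected on 3 of 3 NUDT16 and 0 of 3 mock arrays. It was at least 31.7-fold higher, against the lowest detected signal where mock was dim. The limma adjusted p of 0.00155 belongs to the fitted log2 difference, 6.91, which uses the undetected mock values, and not to that bound. A second NUDT16P1 probe was detected on 0 of 6 arrays. Of 14 T-lineage markers 12 were detected on every mock array and 11 on 5 or more of the 6 arrays, and of 3 fibroblast markers 0 were detected on any. Among the markers of other cell types, 2 of 3 B-cell, 0 of 3 myeloid, 1 of 2 erythroid, 2 of 3 epithelial and 1 of 2 endothelial markers were detected on 5 or more arrays.

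The probe sequences of BMP4, SMAD5, ID2 and ID3 show what the array read. They are printed because these genes are measured inside, or at the end of, the coding sequence, away from the cap that the antibody bound. The lines give the transcript strand, 5′ to 3′, with hg19 positions. In SMAD5 the capitals are the 4 codons before the stop codon, the serine-rich tail that the type I receptor phosphorylates; in ID2 they are the stop codon, and 59 of the 60 bases are shown. The BMP4 and ID3 stretches have no part in capitals, and the ID3 stretch lies in the helix-loop-helix.
BMP4, chr14:54417318-54417377, minus strand: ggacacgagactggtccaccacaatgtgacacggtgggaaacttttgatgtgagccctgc
SMAD5, chr5:135513109-135513168, plus strand: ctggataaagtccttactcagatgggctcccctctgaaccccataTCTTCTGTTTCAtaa
ID2, chr2:8822642-8823030, plus strand: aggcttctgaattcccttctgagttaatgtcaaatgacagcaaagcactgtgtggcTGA
ID3, chr1:23885666-23885725, minus strand: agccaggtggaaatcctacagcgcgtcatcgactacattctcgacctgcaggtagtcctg

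The end that the immunoprecipitation selects is the other one, the first transcribed base, which carries the cap. For genes whose signals carry the results below, the lines give the 20 bases before and the 10 bases from the start annotated by RefSeq (GRCh38.p14), with the first transcribed base in capitals. BMP4 has 3 annotated starts.
BMP4 start 1, chr14:53955041-53955070, minus strand: gggcgcggacggtcgcgcagGggcgcccgc
BMP4 start 2, chr14:53954479-53954508, minus strand: aagggaagccgaggcgagagAgacgcagac
BMP4 start 3, chr14:53953386-53953415, minus strand: aaatattccttttaggagccAttccgtagt
BMPR1A, chr10:86755743-86755772, plus strand: tggctgacctcagtcctgttGggccctcgc
SMAD5, chr5:136132825-136132854, plus strand: tccctctccctccctccctcAtccgggtcc
ID1, chr20:31605269-31605298, plus strand: agctgtggctccgcactctcAttccacgtt
ID3, chr1:23559492-23559521, minus strand: ccgccgcggcgagcgtgcgcGcgttgcagg
Over the 18 annotated starts of the 10 genes, the first base was A at 10, G at 6, C at 2 and T at 0. Over all annotated starts of the table it was A in 44.4%, G in 33.6%, C in 14.7% and T in 7.24%.

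Motifs known for SMAD binding were searched as plain letters in the window from 250 bases before to 50 after each start. GGCGCC, the GC-rich element bound by BMP-activated SMADs, lay in 5 of the 18 windows, those of BMP4, BMPR2, SMAD1 and SMAD5, and in 19.2% of all 35116 windows. GTCTAGAC, the palindromic SMAD element, lay in 1 of 18, that of SMAD6, and in 0.202% of all windows. Both motifs read the same on either strand, and a match is a description, not a binding site.

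Signals below are log2 processed intensities minus each array's 75th percentile over the 6582 probes detected on all 6 arrays, so most are negative, and are compared only between arrays for 1 probe. The scale has a floor, the lowest normalised signal that counted as detected. That floor was -8.07, -7.05 and -7.76 on mock replicates 1, 2 and 3, and -7.60, -3.52 and -7.97 on NUDT16 replicates 1, 2 and 3. Of the 16 probes, 11, 10 and 13 were detected on mock replicates 1, 2 and 3, and 10, 1 and 12 on NUDT16 replicates 1, 2 and 3. On NUDT16 replicate 2 a probe at background reads about -5.70 (the median of undetected probes), which is above many real signals on the other arrays. For all members but ID1 the value of that array was not well above background, and below it is called a background value. Some of these values lay above -5.70, and that of BMPR1A A_23_P1431, -3.42, was above the floor.

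**Figure D1:**
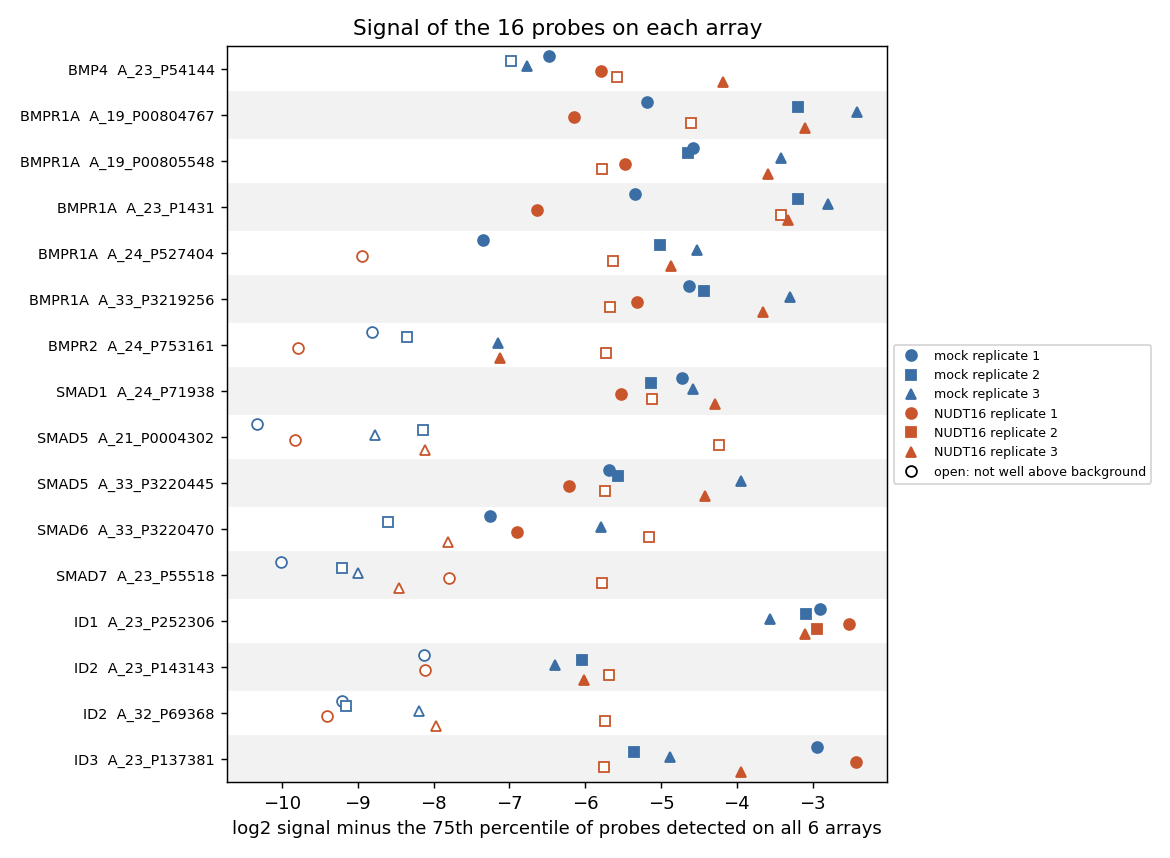
Normalised log2 signal (x axis) of each of the 16 probes (y axis) on the 6 arrays, with open symbols for arrays where the probe was not well above background. ID1 is the only gene with filled symbols on all 6 arrays, and BMP4 has its highest detected value, -4.19, on NUDT16 replicate 3.

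BMP4 itself was dim in mock and brighter on NUDT16 replicates 1 and 3. Its single probe, A_23_P54144, read -6.48, -6.97 and -6.77 on mock replicates 1, 2 and 3, and -5.79, -5.57 and -4.19 on NUDT16 replicates 1, 2 and 3. NUDT16 replicates 1 and 3 lay above the 3 mock values. Both replicate 2 values were not well above background, and that of NUDT16 is close to the background level of its array, so it has no rank among the 6. The unscaled processed intensities were, in the same order, 83.9, 21.5 and 43.4 for mock and 139, 4.69 and 382 for NUDT16. The intensity on NUDT16 replicate 2 was the lowest of the 6.

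Within same-numbered pairs BMP4 was 1.61-fold higher in NUDT16 replicate 1 (log2 0.68) and 5.98-fold higher in NUDT16 replicate 3 (log2 2.58). The replicate 2 pair gave no fold because neither value was well above background. Both differences lay above the 95th percentile of all probes, 0.52 in pair 1 and 0.55 in pair 3. In pair 1, 393 of 19380 probes detected on both arrays (2.03%) rose at least as much as BMP4, while in pair 3 the count was 2 of 23404, BMP4 included. BMP4 was chosen with these differences known and was ranked against probes of every intensity and GC content, so the ranks are a description only. Its probe has 55% GC. Among probes detected on every array of slides 1 and 3, the pair 1 median was -0.50 at 35% GC or less and 0.02 over 50%. In pair 3 these medians were 0.02 and -0.00050. The part of GC content in the ranks was not tested. Because BMP4 was detected on 2 arrays of each group it was outside the filter of the test. In the fit of all 50586 probes its difference was 1.55 (SE 0.91, limma adjusted p = 0.918), next to a median of 0.73 over all probes. That difference includes both replicate 2 values, which were not well above background, so it is not a measured rise of BMP4. Under the 6 other scalings and value sources, the pair 1 difference ranged from 0.41 to 1.35 and that of pair 3 from 1.33 to 3.14, with no change of sign.

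No BMPR1A probe was higher in NUDT16 in either measured pair. BMPR1A, the type I receptor, has 5 probes, whose starts lie within 1234 bases of each other, and all 5 were detected on every mock array and none on NUDT16 replicate 2. The probe with the highest mean over the arrays, A_19_P00804767 (hg19 chr10:88684157-88684216, plus strand), read -5.19, -3.19 and -2.41 on mock replicates 1, 2 and 3, and -6.14, -4.61 and -3.11 on NUDT16 replicates 1, 2 and 3, the second of these at background. NUDT16 was the lower in pairs 1 and 3, and NUDT16 replicate 3 lay above mock replicates 1 and 2, so the groups overlapped.

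The group means of that probe were -3.60 ± 1.43 for mock and -4.62 ± 1.52 for NUDT16 (SD, n = 3 arrays each), a difference of -1.02 (SE 0.89, limma adjusted p = 0.999), with the background value of NUDT16 replicate 2 included. The difference ranged from -1.82 without mock replicate 1 to -0.26 without NUDT16 replicate 1, and was -0.17 after normexp background correction and -2.02 without scaling. A block for the replicate number gave an SE of 0.32 and an adjusted p of 0.467. Across the 5 probes the difference was -0.68 to -1.02, and every one of the 4 values measured on both arrays of pair 1 and the 5 of pair 3 was negative: -0.68 to -1.29 in pair 1 and -0.17 to -0.70 in pair 3. In pair 1 A_23_P1431 lay below the 5th percentile of all probes (-1.07) at -1.29, a 2.44-fold lower signal. No BMPR1A probe passed the threshold in the 6-array fits, while A_24_P527404 did in the fit of pairs 1 and 3 alone, with a difference of -0.97 (SE 0.30, limma adjusted p = 0.0407). That fit called 0.0675% of all tested probes higher and 3.38% lower. The value of this probe on NUDT16 replicate 1, -8.94, was not well above background. In that fit all tested member probes had the same SE, 0.30. The p-value there follows the size of the difference and does not measure this probe's own spread.

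A pair of the BMPR1A probes, A_19_P00805548 and A_33_P3219256, carries the same 60-base sequence (chr10:88684862-88684921), and the copies show the spot-to-spot error within an array. Their log2 signals lay 0.06, 0.21 and 0.13 apart on mock replicates 1, 2 and 3, and 0.16 and 0.07 apart on NUDT16 replicates 1 and 3. The NUDT16 minus mock differences of the copies were -0.90 and -0.68 in pair 1, and -0.17 and -0.37 in pair 3. The gaps hold no error of immunoprecipitation, labelling or hybridisation, so they do not measure the error of those differences.

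BMPR1A differed more between slides 1 and 3 than between mock and NUDT16 on either slide. In mock the log2 difference of slide 1 minus slide 3 was -2.83, -2.55 and -2.78 at the first 3 probe positions, and -1.15 and -1.34 at the shared sequence 1234 bases on. In NUDT16 it was -3.32 and -3.04 at the 2 of those 3 positions detected on both arrays, and -1.88 and -1.65 at the shared sequence. Of the 5 BMPR1A probes, 3 have 35% GC and the others 36.7% and 40%. Over all probes detected on the 4 arrays of slides 1 and 3, the median slide 1 minus slide 3 difference was -0.39 in mock and -0.95 in NUDT16 at 35% GC or less, -0.49 and -0.91 at over 35% to 40%, and 0.21 and 0.25 at over 50%. Within pair 1 the median NUDT16 minus mock difference of the same probes was -0.50, -0.47 and 0.02 in these 3 GC classes, and within pair 3 it was 0.02, -0.05 and -0.00050. The part of GC content or RNA length in the slide and pair differences of BMPR1A was not tested.

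**Figure D2:**
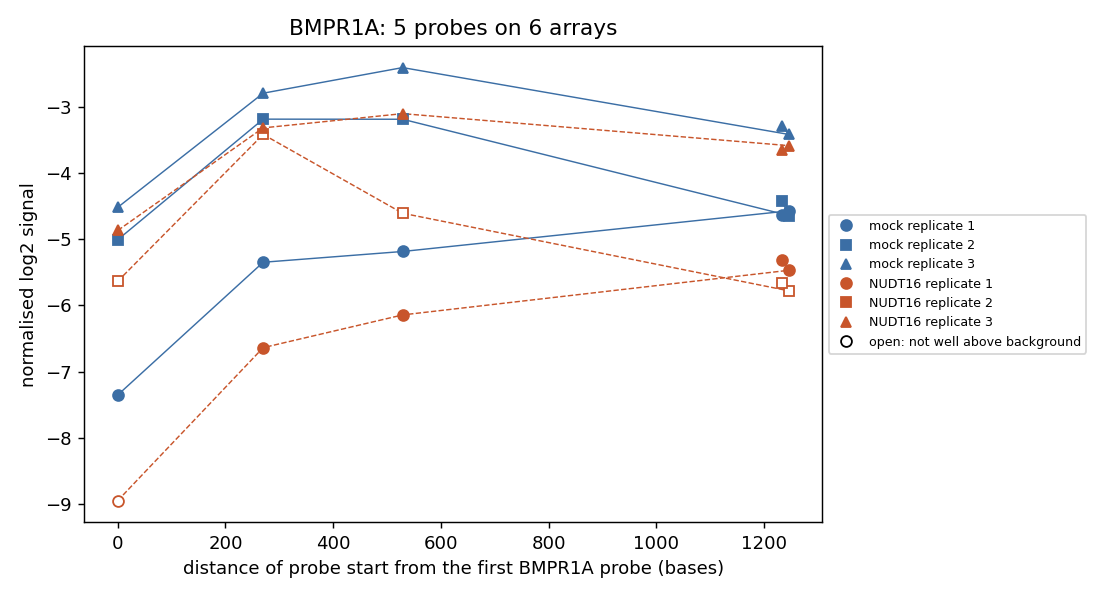
Normalised log2 signal (y axis) of the 5 BMPR1A probes against the distance of their start from the first (x axis, bases), with a line for each array and open symbols where the probe was not well above background; the copies at 1234 bases are drawn slightly apart. On slides 1 and 3, NUDT16 (dashed) lies under mock (solid) at each probe.

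BMPR2, the type II receptor, was hardly measurable. Its probe A_24_P753161 was detected only on the replicate 3 arrays, where it read -7.15 in mock and -7.13 in NUDT16. That pair differed by 0.02 on the log2 scale. On the other 4 arrays it was not well above background and no fold was taken.

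Both receptor-activated SMADs were detected on 5 arrays. SMAD1 (A_24_P71938, chr4:146480219-146480278, plus strand) read -4.73, -5.14 and -4.57 on mock replicates 1, 2 and 3, and -5.53, -5.12 and -4.29 on NUDT16 replicates 1, 2 and 3, the second at background. Of the 5 detected values NUDT16 replicate 1 was the lowest and NUDT16 replicate 3 the highest, so the groups overlapped. The difference was -0.17 (SE 0.61, limma adjusted p = 0.999), and the pairs moved opposite ways, 1.74-fold lower in pair 1 and 1.22-fold higher in pair 3.

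SMAD5, read at the codons of its serine-rich tail, gave -5.69, -5.57 and -3.94 on mock replicates 1, 2 and 3, and -6.22, -5.74 and -4.42 on NUDT16 replicates 1, 2 and 3, again with the second at background. On slides 1 and 3 the NUDT16 value was below the mock value, and replicate 3 was above replicate 1 in both groups. Differences of -0.53 in pair 1 and -0.48 in pair 3 compare with medians of -0.27 and -0.09 over all probes in those pairs. The group difference was -0.39 (SE 0.72, limma adjusted p = 0.999; with the replicate block 0.561). A second probe named SMAD5, A_21_P0004302, is described on the array as a long intergenic RNA and was detected on no array.

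The inhibitory SMADs were detected on 3 arrays at most. SMAD6 (A_33_P3220470), which competes with receptor-activated SMADs, was detected on mock replicates 1 and 3 at -7.26 and -5.79, and on NUDT16 replicate 1 at -6.89. The pair 1 signal was 1.29-fold higher in NUDT16. In pair 3 the NUDT16 value of -7.81 lay below the mock value but was not well above background, so no fold is given for that pair. SMAD7 (A_23_P55518), which blocks type I receptors, had no array on which it was well above background, so no fold is given.

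The ID genes encode helix-loop-helix proteins without a DNA-binding region. ID1 (A_23_P252306, chr20:30194158-30194217, plus strand) was the only gene detected on all 6 arrays. It read -2.90, -3.09 and -3.56 on mock replicates 1, 2 and 3, and -2.52, -2.94 and -3.10 on NUDT16 replicates 1, 2 and 3. Each NUDT16 array was above its mock partner, by 1.31-, 1.11- and 1.37-fold in pairs 1, 2 and 3, and the groups overlapped. The difference was 0.33 (SE 0.58, limma adjusted p = 0.999; with the replicate block SE 0.30 and adjusted p = 0.608), and it turned to -0.35 with a median shift and to -0.66 without scaling.

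ID3 (A_23_P137381) spread more widely between arrays than ID1. It read -2.94, -5.36 and -4.87 on mock replicates 1, 2 and 3, and -2.43, -5.76 and -3.94 on NUDT16 replicates 1, 2 and 3, with NUDT16 replicate 2 at background. Slide 1 arrays were the highest in each group, by 1.93 over slide 3 in mock and by 1.51 in NUDT16, opposite to BMPR1A. The ID3 probe has 55% GC, more than any BMPR1A probe, and the part of GC content in this contrast was not tested. ID3 was 1.43-fold higher in pair 1 and 1.91-fold higher in pair 3, the latter above the 95th percentile. Its group difference was 0.35 (SE 0.90, limma adjusted p = 0.999), negative under a median shift (-0.33), without scaling (-0.65) and after quantile normalisation (-0.77).

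ID2 was detected on 3 arrays. Its probe A_23_P143143 has coordinates that span 389 bases for 60 bases of probe, as a probe across an intron would, and it read -6.05 on mock replicate 2, -6.40 on mock replicate 3 and -6.01 on NUDT16 replicate 3. The replicate 3 pair differed by 0.39, or 1.31-fold. A second ID2 probe, A_32_P69368, was detected on no array.

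**Figure D3:**
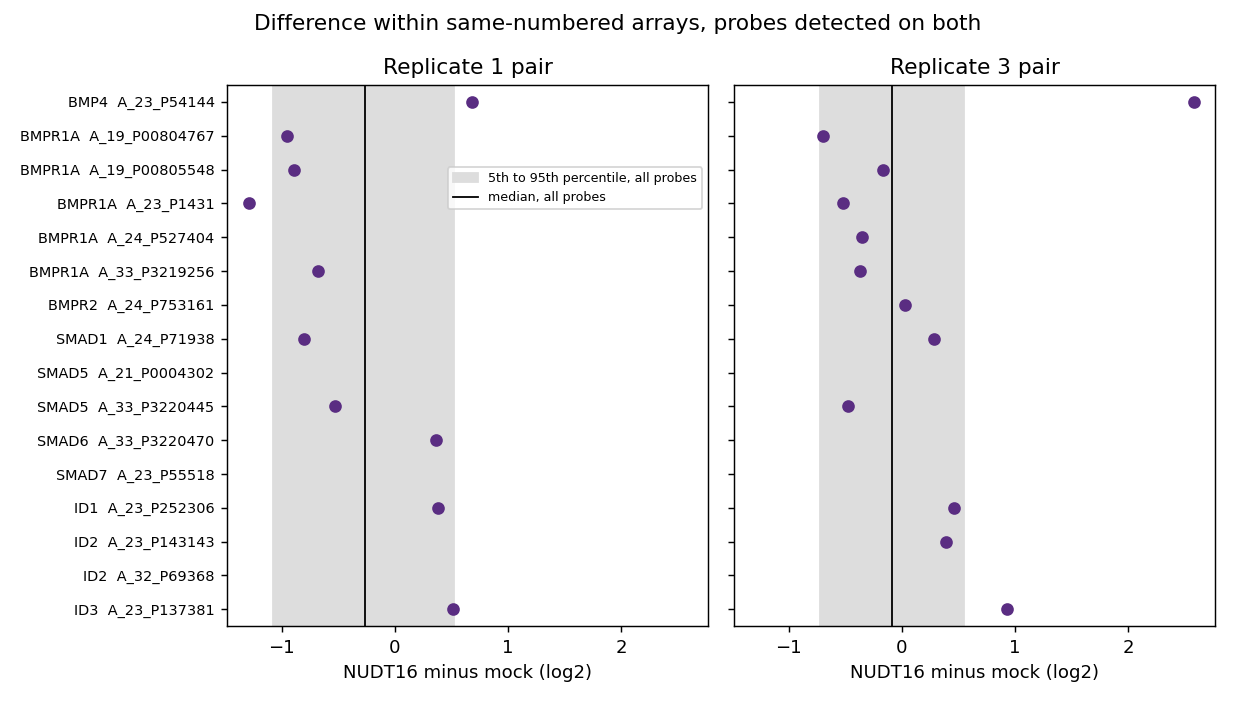
NUDT16 minus mock signal (log2, x axis) within the replicate 1 pair (left) and the replicate 3 pair (right) for each probe detected on both arrays (y axis), with the 5th to 95th percentile of all probes in grey and their median as a line. BMP4 lies right of the grey band in both pairs, at 0.68 and 2.58.

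Across the genes, 9 of the 16 probes, from 5 of the 10 genes, were in the tested set of 17765. All 9 were detected on every mock array and only that of ID1 on NUDT16 replicate 2, so the filter was passed through mock and the directions of the 9 are not tallied. None was called: 0 of 9 probes passed the limma adjusted p threshold of 0.05, against 0.00563% called higher and 0% called lower of all tested probes. At an unadjusted p under 0.05 there were 0 of 9 member probes and 8 of all probes, and with the replicate block 1 of 9 and 1734. The 8 are a far smaller share of the 17765 probes than the 0.05 that no difference at all would give. The fit without the block keeps differences between slides in its spread, so the lack of calls does not show that nothing changed.

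Pair 1 had 10 probes of these genes detected on both arrays. At least 2-fold higher there were 0, against 0.557% of all probes, and at least 2-fold lower 1, against 7.09%. Pair 3 had 12 such probes, with 1 at least 2-fold higher, BMP4, against 0.551%, and 0 at least 2-fold lower, against 1.30%; SMAD6, detected on the mock array alone, is not among the 12. The median over these probes was -0.60 in pair 1 and -0.07 in pair 3, against -0.27 and -0.09 over all probes. BMPR1A supplied more of them than any other gene, so these medians do not weigh the genes equally and give no direction for the pathway.

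**Figure D4:**
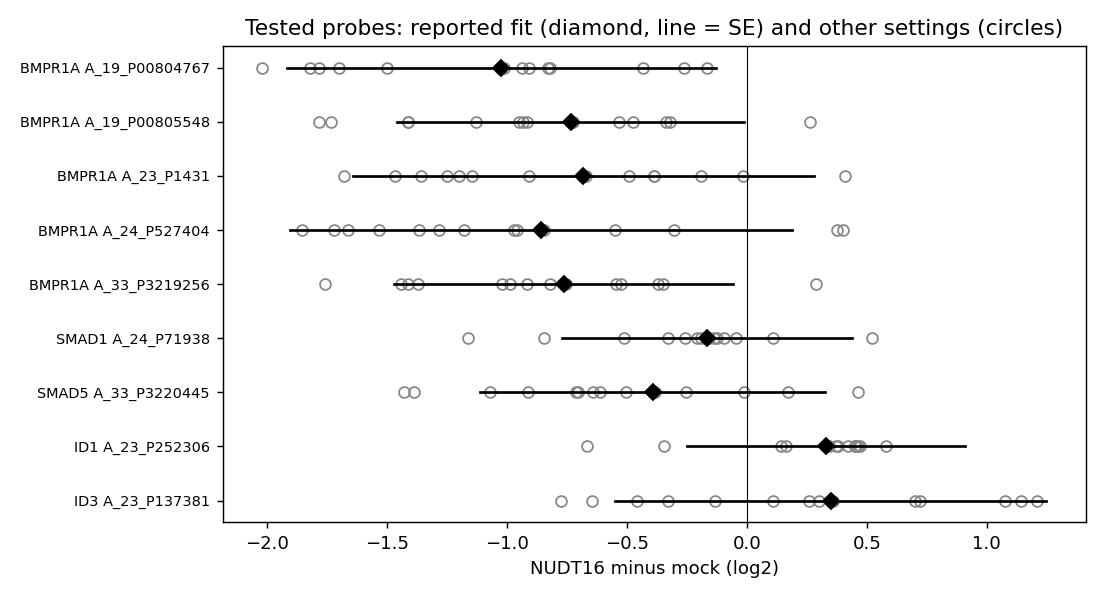
NUDT16 minus mock (log2, x axis) of the 9 tested probes (y axis) in the reported fit (diamond, with its SE as a line) and under the other settings (circles). Only 1 BMPR1A probe, A_19_P00804767, has all its circles on 1 side of 0.

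The wider pathway showed no call. Of 56 further genes by role (ligands, receptors, SMADs, inhibitors, regulators, targets, E proteins and the TGF-beta branch), 18 had a tested probe and 0 passed the limma threshold in either direction, against the 0.00563% and 0% above. Their median difference was -0.10, next to -0.11 over all tested probes. Only 5 of the 18 were detected on all 6 arrays. The others passed the filter through mock, so directions are not tallied, and background values of NUDT16 replicate 2 enter most of these differences. Of the 13 other ligands 9 were detected on no array, as were 3 of 5 other receptors.

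Among these genes, CTDSP1 and CTDSP2, phosphatases of the family that removes phosphate from SMADs, showed differences of 0.50 (SE 0.66) and 0.25 (SE 0.79). CTDSP1 was above its mock partner in each pair, by 0.45, 0.64 and 0.41, and CTDSP2 by 0.17, 0.13 and 0.45; both turned negative with a median shift (-0.18 and -0.43) and without scaling (-0.49 and -0.75). BMP8B, another ligand, showed -0.67 (SE 0.82), lower in each pair by -0.99, -0.53 and -0.47. TCF3, an E protein that ID proteins bind, showed -0.08 (SE 0.76), and its sign changed under 7 of the 18 other settings. The other E proteins, named here after their values were seen, read lower: TCF4 -1.21 (SE 0.86; -1.10 in pair 1 and -0.43 in pair 3) and TCF12 -0.98 (SE 0.87; -0.67 and 0.09), neither detected on NUDT16 replicate 2. Each of these 6 had a limma adjusted p of 0.999 without the replicate block. With the block, the limma adjusted p was 0.497 for CTDSP1, 0.693 for CTDSP2 and 0.467 for BMP8B. It was 0.917 for TCF3, 0.467 for TCF4 and 0.468 for TCF12.

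BMP4 was not tested, so likeness of pattern was taken for BMPR1A, the first tested gene of the list. Over the 6 arrays the tested probes most correlated with its probe A_19_P00804767 were those of SF3B1 (Pearson r = 0.9994), USP47 (0.9992), TRIM61 (0.9989) and PPCS (0.9988). These points share slide and the background value of NUDT16 replicate 2, and the r values are a description of n = 6 arrays.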

How the data were processed

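The scanner values are deposited as linear fluorescence intensity per spot, background subtracted per the file headers (Agilent design 039494, Feature Extraction 10.7.3.1, hg19). The authors' deposited value table is on a log2 scale and ranks spots as median minus background signal does; how it was made is not given in the sources used here, and it served as an alternative. All value columns mapped to a sample (0 did not).

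Control and outlier spots were dropped, log2 intensity was shifted by each array's 75th percentile over the 6582 probes detected on all 6 arrays, and spots of 1 probe were averaged. Fewer than 50% of spots were detected on most arrays, and the percentile over all probes falls at background on NUDT16 replicate 2. Probes detected on all 3 arrays of at least 1 group went into 2-sided tests by lmFit and eBayes of limma (version 3.58.1, R version 4.3.3) without a block, with Benjamini-Hochberg adjustment over 17765 probes at 0.05; the fit was tested on simulated data. The precision is limited by 3 arrays a group. Same-numbered arrays share a slide in the file headers and their deviations correlate above 0.1 in each pair, so the numbers pair the arrays. Members, gene lists and scaling were chosen with earlier results of these data known. Named genes are all 10 members, the 2 genes of the pathway list per direction with the smallest unadjusted p among those detected on all 6 arrays, and the genes most correlated with the first tested member, of which an unnamed transcript was left out. Other scalings, background corrections, filters, models, pairings and left-out arrays were tried.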

Additional observations from a re-analysis of the deposited data

How the results depend on the processing

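The reported fit called 1 probe, that of NUDT16P1. It was detected on no mock array, so the filter on all 6 arrays left it out in advance. None was called without scaling, after normexp, in the authors' value table, without a filter or with the filter on all 6 arrays (0 each; unadjusted p under 0.05: 1, 1, 10, 160 and 2 probes), and 0 to 1 were called when each array was left out. The replicate block kept the count at 1 for all probes and 0 for members. The replicate block without replicate 2 called 613 probes, 1 of them a member, BMPR1A A_24_P527404. That fit gave the tested member probes the same SE, so its calls do not measure each probe's own spread. The pathway list had 0 calls under all 18 settings, by limma. Of 154 member values under other settings 137 kept their sign and side, 16 changed sign and 1 passed the threshold, with 0.0407 as the lowest adjusted p.

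The median over all tested probes moved from -0.11 to -0.78 with a median shift, -0.26 with quantile normalisation, -1.10 without scaling, -0.21 in the authors' value table, 0.47 after normexp, 0.73 without a filter and 0.16 with the filter on all 6 arrays. After normexp BMPR1A A_19_P00805548, A_24_P527404 and A_33_P3219256 read 0.26, 0.40 and 0.29, SMAD1 0.52, SMAD5 0.47 and TCF3 0.14. A median shift gave ID1 -0.35, ID3 -0.33, CTDSP1 -0.18 and CTDSP2 -0.43, no scaling -0.66, -0.65, -0.49 and -0.75, and quantile normalisation ID3 -0.77 and TCF3 0.0027. TCF3 was 0.049 in the authors' table, 0.27 in the replicate block without replicate 2 and 0.091 with array weights. With each array left out, the ranges were -1.47 to 0.41 for BMPR1A A_23_P1431, -1.72 to 0.37 for A_24_P527404, -0.51 to 0.11 for SMAD1, -0.91 to 0.17 for SMAD5, -0.46 to 1.21 for ID3, -0.32 to 0.85 for CTDSP2, -1.44 to 0.012 for BMP8B and -0.60 to 0.65 for TCF3. Those sign changes came without NUDT16 replicate 1 (A_23_P1431, A_24_P527404, SMAD1, ID3, CTDSP2), mock replicate 2 (ID3, CTDSP2) or mock replicate 3 (SMAD5, BMP8B), and for TCF3 without mock replicate 1 or NUDT16 replicate 2. The causes were not tested. The background level of NUDT16 replicate 2 limits every member but ID1.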
